A study of Mus musculus with 10 samples.

Results

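Lymphatic endothelial cells (LEC) of the lymph node were compared with LEC of the diaphragm, which is 1 lineage taken from 2 tissues. The comparison used 7 of the 10 libraries of the study, 4 of LN-LEC and 3 of D-LEC, chosen by the cell type and tissue in their labels, and it covered every named gene of the count table. All mice were of strain C57BL/6 (B6) and 6 to 8 weeks old, and the labels name no treatment and no genetic change. LN-LEC came from inguinal, axillary, brachial, cervical and mesenteric nodes pooled together, and D-LEC came from diaphragm. Both tissues were digested and depleted of CD45+ cells, and cells that were CD45-, CD31+ and PDPN+ were then sorted. Each library pools several mice, so the spread between libraries is a spread between pools. The 3 LN-BEC libraries (lymph node blood endothelium, PDPN-) entered the fit only to share its estimate of the spread, and their values appear below where they bear on a gene.

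Lymphatic vessels collect interstitial fluid, proteins and leukocytes from tissues, and their endothelium is set apart from blood endothelium by the transcription factor PROX1. In a lymph node the LEC line sinuses through which lymph is filtered before it leaves. The lymphatics of the diaphragm lie in a muscle that contracts with each breath, and on its peritoneal side they take up fluid from the abdominal cavity through openings of the mesothelium.

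The 7 libraries held 22429940 to 48906070 fragments counted on genes. Levels are given as FPKM, fragment counts scaled to exon length and to library size after TMM scaling, and are listed by library in the order of replicates 1 to 4 of LN-LEC and 1 to 3 of D-LEC. A pair of values joined by "against" gives the mean ± SD of LN-LEC (n = 4) and then of D-LEC (n = 3). LN-LEC replicate 4, the deepest library, stood apart. Its chi-square per gene against the other LN-LEC libraries was 130.1 to 169.8, compared with 11.2 to 20.4 among the other 3. In each of the LN libraries a set of 19 salivary gland secretory genes was abundant. They took 2.13, 1.73, 1.79 and 8.96% of the fragments in the LN-LEC libraries, 3.03, 1.89 and 16.1% in LN-BEC and 0.0388, 0.00157 and 0.00191% in D-LEC. The most abundant was Bpifa2, a secretory protein of the parotid gland, at 14989, 11701, 12004 and 61581 FPKM in LN-LEC and 258, 7.68 and 7.97 FPKM in D-LEC. Of the 19 genes, which were chosen after their values were seen, 14 were called higher in LN-LEC and 16 had libraries that did not overlap. Of 9 pancreatic enzyme genes chosen in the same way, 3 were called higher in LN-LEC, and together they took 0.000762, 0.00710, 0.00214 and 0.00988% of the fragments in LN-LEC. The pooled nodes included cervical and mesenteric nodes, and the part of gland transcripts in the results below was not tested. The counts of called genes without LN-LEC replicate 4 were 3509 higher in LN-LEC and 3243 in D-LEC, close to those of all libraries.

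A gene was called when the edgeR quasi-likelihood test gave a Benjamini-Hochberg adjusted p under 0.05, and a positive log2 fold change means a higher level in LN-LEC. The SE (standard error) given for a gene was worked back from its fold change and the F value of the edgeR test. It is not a separate estimate of the error of the fold change. Both this SE and the p of a gene rest on its spread within all populations, LN-BEC included. Uneven LN-BEC values can therefore widen them where the LEC libraries lie close together. Of 15338 genes tested, 3691 (24.1%) were higher in LN-LEC and 3330 (21.7%) were higher in D-LEC. At least 5-fold differences were called for 1249 genes (8.14%) on the LN-LEC side and 617 genes (4.02%) on the D-LEC side. The libraries of the populations did not overlap for 3999 genes (26.1%) higher in LN-LEC and 3643 genes (23.8%) higher in D-LEC. The median log2 fold change over all tested genes was 0.03. These shares are the background against which each gene list below is read, and the lists give tested members only. In bulk RNA, fewer cells of a type that express a gene and less RNA of that gene per cell cannot be told apart.

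**Figure D1:**
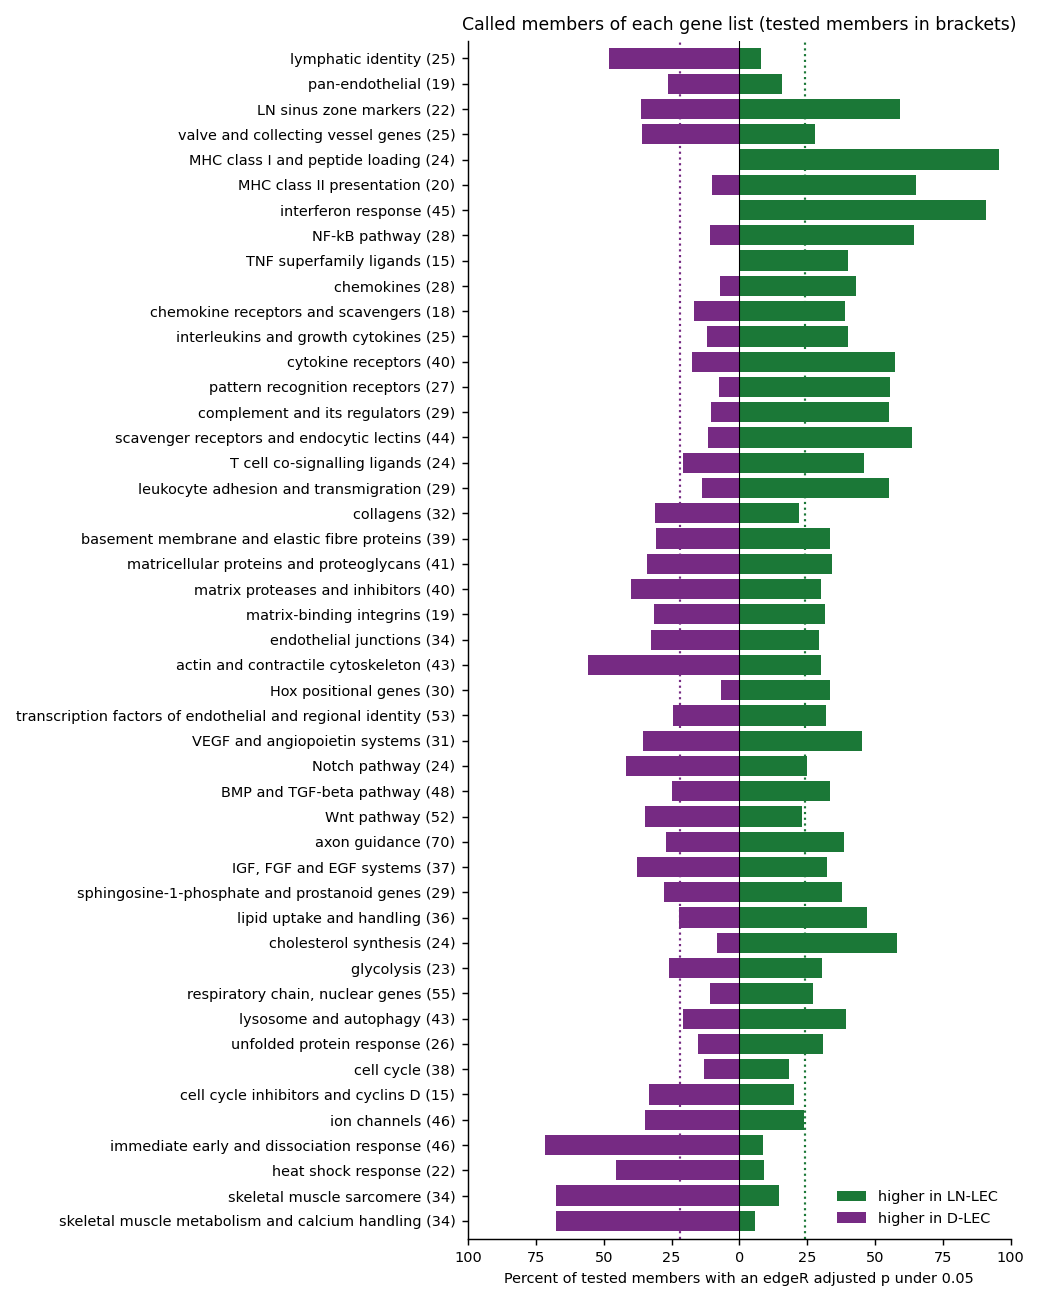
For each gene list with at least 10 tested members, bars give the percent of tested members called higher in LN-LEC (right, green) and higher in D-LEC (left, purple), and dotted lines mark the percent over all tested genes, 24.1 and 21.7. MHC class I and interferon genes stand almost wholly to the right (23 of 24 and 41 of 45), and immediate early genes (33 of 46) and skeletal muscle genes (23 of 34 in each muscle list) stand to the left.

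Both populations carried the general markers of endothelium and of the lymphatic lineage. Of 19 tested pan-endothelial genes 11 were not called, and of 25 lymphatic identity genes 11 were not called. Pecam1, which encodes CD31, stood at 315, 325, 301 and 291 FPKM in LN-LEC and 298, 349 and 289 FPKM in D-LEC. Prox1 stood at 66.1, 65.6, 65.1 and 60.2 FPKM in LN-LEC and 51.5, 69.1 and 65.8 FPKM in D-LEC. Neither Pecam1 nor Prox1 was called (log2 fold changes -0.02 and 0.05, SE 0.10 and 0.28). Other genes of the lineage were also not called, among them Maf (312 ± 29.9 against 346 ± 42.5 FPKM), Gata2 (37 ± 1.32 against 35 ± 1.23) and Tbx1 (56 ± 3.07 against 53.3 ± 6.72). 

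Many surface and secreted products of lymphatic endothelium were higher in D-LEC. Of 25 tested members of the lymphatic identity list, 12 were higher in D-LEC, 2 were higher in LN-LEC and 11 were not called, with a median log2 fold change of -0.56. Pdpn, the podoplanin on which both populations were sorted, had 363, 349.8, 304 and 381 FPKM in LN-LEC and 1228, 1105 and 1139 FPKM in D-LEC (log2 fold change -1.73, SE 0.50, adjusted p = 0.023 by edgeR). Leaving out LN-LEC replicate 1, 2 or 3 or D-LEC replicate 1 or 3 raised its edgeR adjusted p to between 0.051 and 0.062. The LN-BEC values of Pdpn, which enter this spread, were uneven (9.37, 3.29 and 21.5 FPKM). Flt4, which encodes the VEGF-C receptor VEGFR3, had 90.01, 89.5, 97.8 and 86.9 FPKM in LN-LEC and 509, 436 and 409 FPKM in D-LEC (log2 fold change -2.31, SE 0.12, adjusted p = 2.4e-09 by edgeR). Its co-receptor Nrp2 had 29.5, 29.1, 32.1 and 26.5 FPKM in LN-LEC and 95.9, 108 and 91.2 FPKM in D-LEC (log2 fold change -1.75, SE 0.09, adjusted p = 2.6e-09 by edgeR). For each of these genes all D-LEC libraries lay above all LN-LEC libraries. The same held for Mmrn1, the matrix protein multimerin-1 (238 ± 30.5 against 1438 ± 54.3 FPKM), Thy1 (107 ± 25.4 against 709.7 ± 119), Tspan18 (20.8 ± 1.4 against 213 ± 38.5), Sox18 (84.6 ± 7.84 against 207 ± 26.6), the angiopoietin co-receptor Tie1 (63.7 ± 2.36 against 125 ± 18.6) and Reln, a secreted glycoprotein of collecting lymphatics (8.49 ± 1.66 against 238 ± 6.54). Reln had the largest change of the list (log2 fold change -4.81, SE 0.50, adjusted p = 8.7e-05 by edgeR). Lyve1, the hyaluronan receptor of lymphatic capillaries, had 767, 751, 932 and 611 FPKM in LN-LEC and 1922, 2319 and 1949 FPKM in D-LEC, so that the libraries did not overlap, but it was not called (edgeR adjusted p = 0.065). In a fit of the 7 LEC libraries alone, without the uneven LN-BEC values (11, 8.02 and 44.5 FPKM), Lyve1 was called (edgeR adjusted p = 4.6e-07), and so was Foxc2, a regulator of valves (103 ± 14.7 against 172 ± 31.6 FPKM, edgeR adjusted p = 0.00036). The members that were higher in LN-LEC were Itga9, an integrin of lymphatic valves (32.9 ± 3.78 against 22.9 ± 1.15 FPKM), and the homeobox gene Hhex (98 ± 6.08 against 77.3 ± 8.7 FPKM), whose edgeR adjusted p was 0.053 without D-LEC replicate 1.

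Among pan-endothelial genes 3 of 19 were higher in LN-LEC and 5 in D-LEC. Endomucin (Emcn), an anti-adhesive sialomucin, had 15.9, 11, 11.8 and 19.4 FPKM in LN-LEC and 112, 146 and 164 FPKM in D-LEC (log2 fold change -3.27, SE 0.20, adjusted p = 1.2e-07 by edgeR), and its LN-BEC level was 382 FPKM. The VEGF receptor Kdr (102 ± 9.41 against 71.9 ± 11.1 FPKM) and the transcription factor Erg (20.6 ± 1.49 against 10.2 ± 1.96) were higher in LN-LEC. Cdh5, the cadherin of endothelial junctions, was not called (220.0 ± 11.2 against 243 ± 22.8). Over 19 blood endothelial genes the median level was 3.81% of the LN-BEC mean in LN-LEC and 4.21% in D-LEC, and 10 were higher in LN-LEC while 7 were higher in D-LEC. In LN-LEC the levels ran from 0.777% (Esm1) to 45.2% (Plvap) of the LN-BEC mean, with Sele at 27.4%, Podxl at 20.9% and Nrp1, Flt1 and Ly6c1 at 1.49%, 1.36% and 1.2%. In D-LEC, Hey1 (130% of the LN-BEC mean), Gpihbp1 (126%) and Podxl (92.2%) were near or above the LN-BEC level.

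**Figure D2:**
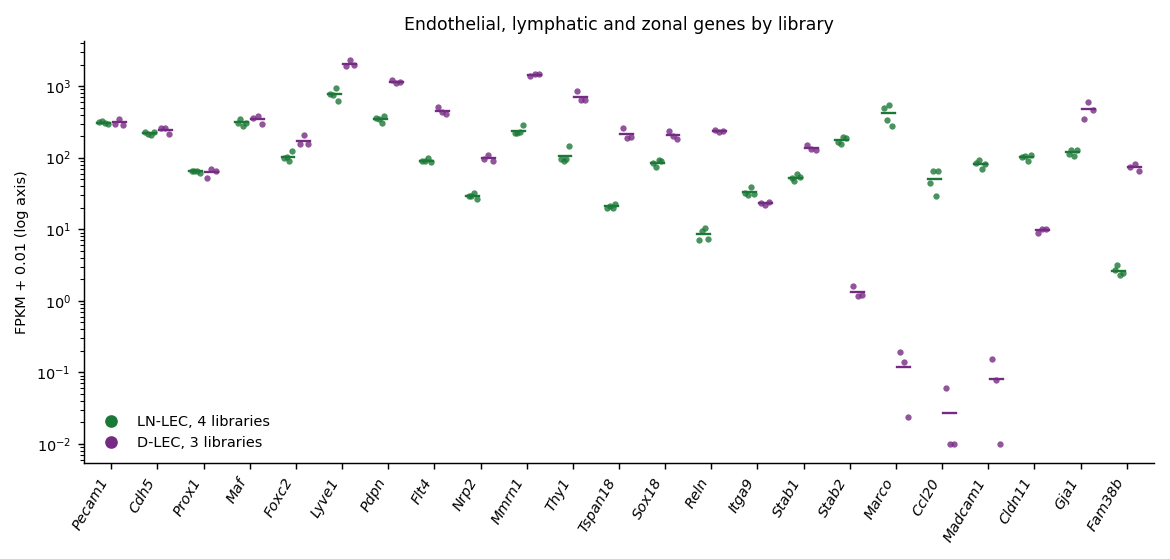
FPKM of endothelial, lymphatic and zonal genes in each of the 4 LN-LEC (green) and 3 D-LEC (purple) libraries on a log axis, with bars at the means and 0.01 added to each value. Pecam1, Cdh5, Prox1 and Maf lie at like heights, the genes from Pdpn to Reln lie higher in D-LEC, and Stab2, Marco, Ccl20 and Madcam1 lie far higher in LN-LEC.

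Genes that mark the zones of the lymph node sinus divided between the populations. Of 22 tested, 13 were higher in LN-LEC and 8 in D-LEC, and the median log2 fold change was 4.97. On the LN-LEC side stood some genes of the medullary sinus and of the floor and ceiling of the subcapsular sinus. The list was not split by zone, so it does not place a whole zone on either side. Marco, a scavenger receptor for bacteria and particles, had 495, 336, 548 and 280.4 FPKM in LN-LEC and 0.183, 0.132 and 0.0135 FPKM in D-LEC (log2 fold change 12, SE 1.31, adjusted p = 1.7e-04 by edgeR). Its LN-BEC values, which enter the SE, were uneven (5.67, 3.18 and 27.6 FPKM). Marco lies on chromosome 1 from 122371115 to 122401661 of mm9. Ccl20, a chemokine of floor LEC, had 44.2, 64.9, 28.8 and 65.9 FPKM in LN-LEC against at most 0.0503 FPKM in a D-LEC library. Madcam1, a ligand of the gut-homing integrin, had 84.8, 92.4, 69.1 and 81.2 FPKM in LN-LEC and 0.142, 0.0690 and 0 FPKM in D-LEC (log2 fold change 10.32, SE 0.41, adjusted p = 8.2e-09 by edgeR), and 191 FPKM in LN-BEC. Stab2 (175 ± 17.6 against 1.31 ± 0.232 FPKM), the lectin Clec4g (93.9 ± 18.4 against 0.171 ± 0.0891), Itga2b (91.6 ± 13.4 against 0.969 ± 0.414), Coch (41.1 ± 12.3 against 1.26 ± 0.639), the macrophage growth factor Csf1 (181 ± 17.6 against 5.86 ± 0.626), Bmp2 (119.7 ± 21 against 0.157 ± 0.0889) and Ccrl1, the atypical chemokine receptor also named Ackr4 (128 ± 50.04 against 1.44 ± 0.214), had libraries that did not overlap. Glycam1, a mucin of high endothelial venules, was also higher in LN-LEC (3815 ± 646 against 17.6 ± 13.4 FPKM), and its LN-LEC mean was 3.03% of the LN-BEC mean. The members higher in D-LEC included Cav1, of caveolae (186 ± 32.7 against 516 ± 64.7 FPKM), Anxa2 (126 ± 26.4 against 448 ± 21.3), Stab1 (52.7 ± 5.11 against 136 ± 13.5) and Ptx3 (23.9 ± 2.6 against 65.7 ± 17.8).

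Valve and collecting vessel genes were split. The connexin Gja1 (118 ± 10.9 against 471 ± 129 FPKM), the peptide hormone Adm (38.6 ± 7.15 against 89.2 ± 25.7) with its receptor Calcrl (115 ± 15.6 against 201 ± 16.9), and Nfatc1 (40.1 ± 1.33 against 62.6 ± 10.2) were higher in D-LEC. Cldn11, a claudin, was higher in LN-LEC at 101, 105, 88.8 and 108 FPKM, against 8.9, 10.03 and 10.03 FPKM in D-LEC (log2 fold change 3.38, SE 0.17, adjusted p = 3.5e-09 by edgeR). Counts of the list were 7 higher in LN-LEC and 9 in D-LEC of 25 tested.

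Transcripts of antigen presentation through MHC class I were higher in LN-LEC for nearly all genes tested. Of 24 tested genes 23 were called higher in LN-LEC and 0 in D-LEC, with a median log2 fold change of 2.05. B2m, the light chain of all class I molecules, had 18879.7, 17343, 21606 and 16085 FPKM in LN-LEC and 2221, 2829.5 and 2844 FPKM in D-LEC (log2 fold change 2.81, SE 0.13, adjusted p = 9.4e-10 by edgeR). The heavy chains H2-K1 (4471 ± 454 against 567 ± 35.2 FPKM) and H2-D1 (2047 ± 205 against 462 ± 27.9) followed it. The immunoproteasome subunits Psmb8, Psmb9 and Psmb10 had log2 fold changes of 3.08, 2.96 and 2.27, and the peptide transporter genes Tap1 and Tap2 had 2.78 and 1.96. Nlrc5, the transactivator of class I genes, had 24.7, 24.4, 24.4 and 24.6 FPKM in LN-LEC and 3.39, 3.28 and 3.6 FPKM in D-LEC (log2 fold change 2.84, SE 0.08, adjusted p = 1.5e-11 by edgeR). The smallest log2 fold changes among the called members were those of the chaperones Pdia3 (0.35, edgeR adjusted p = 0.06 without D-LEC replicate 1) and Calr (0.60). The member that was not called was Mr1 (18.9 ± 2.68 against 14.7 ± 3.26 FPKM), with an edgeR adjusted p of 0.032 without LN-LEC replicate 2 and 0.0092 without D-LEC replicate 3. Class I genes are near-identical in sequence and a fragment with several matches in the genome was left uncounted, so levels of single heavy chains are uncertain.

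Class II genes moved the same way at far lower levels. Of 20 tested, 13 were higher in LN-LEC and 2 in D-LEC. The invariant chain Cd74 had 44.5, 42.6, 58.2 and 42.2 FPKM in LN-LEC and 1.91, 1.29 and 1.19 FPKM in D-LEC (log2 fold change 5.02, SE 0.19, adjusted p = 2.2e-10 by edgeR). H2-Ab1 had 24.3, 20.6, 42.9 and 30.6 FPKM in LN-LEC and 6.46, 4.24 and 4.51 FPKM in D-LEC (log2 fold change 2.56, SE 0.26, adjusted p = 1.9e-05 by edgeR). The invariant chain protease Ctss was higher in LN-LEC (89.9 ± 5.75 against 1.09 ± 0.848 FPKM), and Ctsl was as well (231 ± 43.5 against 44.2 ± 5.39). Cd9 and the thiol reductase Ifi30 were higher in D-LEC (179 ± 26.7 against 1107 ± 119 and 4.17 ± 1.18 against 14.1 ± 2.2 FPKM). Ptprc (CD45), a marker of leukocytes, which also carry class II, was near 0 in both populations. It stood at 0.195, 0.293, 0.236 and 0.208 FPKM in LN-LEC and 0.121, 0.0807 and 0.0520 FPKM in D-LEC, called higher in LN-LEC. The part of leukocytes in the class II result was not tested.

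The interferon response list had 41 of 45 tested members higher in LN-LEC, 0 higher in D-LEC and a median log2 fold change of 1.5. Ifi47, a GTPase of cell-autonomous defence, had 89.2, 82.7, 85.7 and 115 FPKM in LN-LEC and 3.69, 3.88 and 5.51 FPKM in D-LEC (log2 fold change 4.41, SE 0.18, adjusted p = 6.8e-10 by edgeR). The GTPases Iigp1 (102 ± 11.8 against 21.5 ± 2.47 FPKM) and Igtp (31.4 ± 4.24 against 9.56 ± 0.728) were also higher in LN-LEC. Mx1, an antiviral GTPase, had 22.3, 14.2, 15.2 and 17.4 FPKM in LN-LEC and 0.0136, 0.0768 and 0.0360 FPKM in D-LEC (log2 fold change 8.59, SE 0.31, adjusted p = 2.6e-10 by edgeR). The transcription factors Irf7 (31 ± 7.13 against 5.44 ± 1.15 FPKM), Irf8 (50.8 ± 5.09 against 8.58 ± 1.63) and Irf1 (24.5 ± 4.05 against 7.73 ± 1.3) were higher in LN-LEC, as was the feedback inhibitor Socs1 (14.7 ± 2.38 against 1.3 ± 0.0930). Irf9 (54.3 ± 5.42 against 47.6 ± 3.12), Gbp2 (18.6 ± 3.52 against 16 ± 1.18) and Ifi35 (20.2 ± 2.25 against 18.5 ± 2.02) were not called. The receptor genes Ifngr1, Ifngr2, Ifnar1 and Ifnar2 were higher in LN-LEC by 0.54, 1.84, 0.54 and 0.77 on the log2 scale. In LN-BEC the mean of Ifi47 was 93.7 FPKM and that of B2m 16757 FPKM.

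The promoters of listed genes were searched for elements that NF-kB and interferon-activated factors are known to bind. Promoters came from RefSeq (GRCm38.p6) and run from 250 bases before to 50 bases after a start. The interferon response element, searched on both strands as GAAA and GAAA with any 2 bases between them, was found for 21 of the 35 interferon response genes with a promoter in the table (60%), for 5 of 20 MHC class I genes (25%) and for 3.99% of all 27025 genes. The NF-kB element, searched on both strands as GGGA and TTTCC with any base between them, was found for 1 of 20 MHC class I genes, 3 of 24 chemokines, 3 of 23 NF-kB pathway genes and 0.466% of all genes. A match is a description of the letters and does not show that a factor binds. The lists hold genes known for these pathways, so their shares do not bear on the difference between the populations. Called and uncalled members were not compared, and Gbp2, which was not called, also held the interferon element. The 250 bases before the start are shown for B2m, Cxcl10, Cxcl1 and Igtp, with the matches in capitals on either strand. They are examples of genes that differed and held a match, and do not stand for their classes. Most class I and chemokine promoters held neither element as spelled here, and B2m was the class I gene with this spelling of the NF-kB element. Other spellings of the elements were not searched. A promoter without a match, such as that of Cxcl10 for NF-kB, may therefore still hold a variant. In B2m the interferon element begins 139 bases before the start and the NF-kB element 126 bases before it (chr2:122147437-122147686, plus strand). In Cxcl10 the interferon element begins 213 bases before the start (chr5:92348890-92349139, minus strand), in Cxcl1 the NF-kB element begins 71 bases before it (chr5:90890995-90891244, plus strand), and in Igtp the interferon element begins 34 bases before it (chr11:58199306-58199555, plus strand).
B2m: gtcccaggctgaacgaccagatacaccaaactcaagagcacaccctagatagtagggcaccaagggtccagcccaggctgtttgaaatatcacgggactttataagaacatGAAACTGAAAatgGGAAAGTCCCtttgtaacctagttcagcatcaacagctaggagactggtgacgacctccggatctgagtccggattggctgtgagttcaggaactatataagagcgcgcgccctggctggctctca
Cxcl10: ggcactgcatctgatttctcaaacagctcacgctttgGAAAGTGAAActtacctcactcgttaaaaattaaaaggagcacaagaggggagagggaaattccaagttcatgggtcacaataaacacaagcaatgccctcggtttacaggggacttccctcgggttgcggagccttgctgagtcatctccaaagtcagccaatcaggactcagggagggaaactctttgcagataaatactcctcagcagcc
Cxcl1: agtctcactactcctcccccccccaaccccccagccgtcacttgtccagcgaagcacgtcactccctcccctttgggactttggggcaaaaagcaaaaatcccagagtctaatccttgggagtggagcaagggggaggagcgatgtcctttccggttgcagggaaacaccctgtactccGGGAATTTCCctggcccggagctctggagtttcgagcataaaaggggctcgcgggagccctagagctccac
Igtp: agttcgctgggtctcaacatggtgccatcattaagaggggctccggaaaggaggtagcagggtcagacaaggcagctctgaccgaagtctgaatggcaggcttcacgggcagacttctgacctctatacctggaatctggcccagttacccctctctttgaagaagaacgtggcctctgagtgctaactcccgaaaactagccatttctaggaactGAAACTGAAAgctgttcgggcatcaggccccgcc

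In the NF-kB pathway both subunits of its noncanonical arm, Relb and Nfkb2, were higher in LN-LEC. The subunit genes Rela and Rel and the kinase genes Chuk and Ikbkb were not called. Relb had 38.5, 36, 40.4 and 32.8 FPKM in LN-LEC and 4.95, 5.99 and 5.65 FPKM in D-LEC (log2 fold change 2.74, SE 0.12, adjusted p = 5.2e-10 by edgeR). Its partner Nfkb2 had 51.5, 49, 51.3 and 51.6 FPKM in LN-LEC and 8.59, 7.98 and 7.38 FPKM in D-LEC (log2 fold change 2.67, SE 0.09, adjusted p = 6.6e-11 by edgeR). The kinase Map3k14 (6.45 ± 0.525 against 1.4 ± 0.264 FPKM) and the adaptors Traf1 (23.3 ± 3.05 against 4.13 ± 0.559) and Birc3 (23.3 ± 1.79 against 3.23 ± 0.765) were also higher in LN-LEC. The inhibitors Nfkbie (49.5 ± 4.49 against 4.3 ± 0.422) and Tnfaip3 (27.2 ± 1.75 against 4.77 ± 0.680) and the regulator Bcl3 (44.7 ± 3.23 against 9.57 ± 1.38) went the same way. So did the receptor Tnfrsf11a, which encodes RANK (181 ± 54.5 against 42.7 ± 19.9). Rela (12.3 ± 0.665 against 12.8 ± 0.850), Rel (1.45 ± 0.142 against 1.23 ± 0.226), Chuk (13.8 ± 1.02 against 15.9 ± 1.58) and Ikbkb (14.1 ± 0.928 against 15.1 ± 0.214) were not called, and Cd40 (3.03 ± 0.542 against 8.28 ± 0.833) was higher in D-LEC. Of 28 tested members 18 were higher in LN-LEC and 3 in D-LEC. Among 15 tested TNF superfamily ligands, 6 were higher in LN-LEC, most abundantly Tnfsf10, which encodes the death ligand TRAIL (272 ± 39.7 against 35.6 ± 4.34 FPKM).

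Of 28 tested chemokines 12 were higher in LN-LEC, 2 were higher in D-LEC and 14 were not called, with a median log2 fold change of 1.78, or 1.68 when 3 genes without counts in a population were set to the bound given by 3 counts per library. Cxcl10 had 178, 145, 218 and 165 FPKM in LN-LEC and 1.06, 2.11 and 2.29 FPKM in D-LEC (log2 fold change 6.56, SE 0.36, adjusted p = 3.2e-07 by edgeR). Cxcl9, another ligand of CXCR3, had 26.1, 21.4, 69.3 and 20.3 FPKM in LN-LEC and 0.111, 0.270 and 0.295 FPKM in D-LEC (log2 fold change 7.18, SE 0.71, adjusted p = 7.8e-05 by edgeR). Cxcl16, a membrane-bound chemokine, had 64.2, 49.5, 49.96 and 58.1 FPKM in LN-LEC and 1.09, 1.2 and 1.29 FPKM in D-LEC (log2 fold change 5.53, SE 0.19, adjusted p = 1.4e-10 by edgeR). All LN-LEC libraries exceeded all D-LEC libraries for these genes. Cxcl1 (59.5 ± 23.3 against 4.69 ± 1.72 FPKM), Cxcl13, which organizes B cell follicles (57 ± 35.6 against 6.41 ± 3.88), and Pf4 (48 ± 4.72 against 4.1 ± 1.82) followed. Cxcl12, at 161 FPKM in LN-BEC, was low in both LEC populations (7.35 ± 1.8 against 4.82 ± 0.495), and the monocyte chemokines Ccl2 (34 ± 8.91 against 28.4 ± 8.24) and Ccl7 (7.58 ± 1.5 against 5.82 ± 3.51) were not called. The 3 rows of Ccl21 copies held no counts in any of the 10 libraries. These copies are near-identical and a fragment with several matches in the genome was left uncounted, so the 0 says nothing of the level of Ccl21. Whether this accounts for the missing counts was not tested.

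The receptors that remove chemokines differed in opposite directions. Ccrl1, which clears CCL19, CCL21 and CCL25, had 115, 100.4, 94.5 and 202 FPKM in LN-LEC and 1.26, 1.38 and 1.68 FPKM in D-LEC (log2 fold change 6.46, SE 0.58, adjusted p = 3.6e-05 by edgeR). Cxcr7 (also Ackr3), which clears CXCL12, had 28.6, 22.3, 18.1 and 36.3 FPKM in LN-LEC and 144, 174 and 130.1 FPKM in D-LEC (log2 fold change -2.5, SE 0.25, adjusted p = 2.3e-05 by edgeR). Ccbp2 (also Ackr2), which clears inflammatory CC chemokines, was higher in D-LEC (48.3 ± 6.9 against 113 ± 5.43 FPKM). Darc (also Ackr1) stood at 10.6 ± 0.954 against 0.133 ± 0.0966 FPKM, and its LN-LEC level was 5.26% of that in LN-BEC. Of 18 tested receptors and scavengers, 7 were higher in LN-LEC and 3 in D-LEC.

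Cytokines that sustain leukocytes also differed by gene. Csf1 had 187, 168, 203 and 166 FPKM in LN-LEC and 6.57, 5.41 and 5.6 FPKM in D-LEC (log2 fold change 4.95, SE 0.21, adjusted p = 1.9e-09 by edgeR). The alarmin Il33 had 285, 240.2, 288 and 182 FPKM in LN-LEC and 16, 29.2 and 40.2 FPKM in D-LEC (log2 fold change 3.13, SE 0.57, adjusted p = 0.0026 by edgeR). The T cell survival factor Il7 was higher in D-LEC, at 54.2, 59.7 and 71.7 FPKM against 14.3, 14.8, 14.4 and 18.9 FPKM in LN-LEC (log2 fold change -1.99, SE 0.19, adjusted p = 5.8e-06 by edgeR). Tslp was not called (63.3 ± 20.7 against 57.2 ± 2.45 FPKM). Of 25 tested interleukins and growth cytokines, 10 were higher in LN-LEC and 3 in D-LEC. The cytokine receptors stood at 23 higher in LN-LEC and 7 in D-LEC of 40. The common beta chain Csf2rb had 81.5, 78.5, 86.9 and 70.5 FPKM in LN-LEC and 0.169, 0.123 and 0.0562 FPKM in D-LEC (log2 fold change 9.48, SE 0.25, adjusted p = 1.7e-11 by edgeR). The common gamma chain Il2rg (384 ± 29.1 against 44.8 ± 4.82 FPKM), Il27ra (78 ± 2.92 against 9.11 ± 0.440), Lifr (86.6 ± 13.1 against 5.43 ± 0.709) and Il6st (194 ± 19.9 against 67.4 ± 7.65), which encodes gp130, were higher in LN-LEC. Il6ra (0.937 ± 0.106 against 7.66 ± 1.3 FPKM), Il11ra1 (27.2 ± 2.54 against 60.5 ± 7.99) and Il17ra (4.35 ± 0.528 against 11.8 ± 1.91) were higher in D-LEC. Csf2rb and its copy Csf2rb2 (159 ± 16 against 0.126 ± 0.122 FPKM) share much of their sequence, and their counts are uncertain one against the other.

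Innate recognition and complement genes were mostly higher in LN-LEC. Of 27 tested pattern recognition receptors 15 were higher in LN-LEC and 2 in D-LEC. Tlr4, the endotoxin receptor, had 5.8 ± 1.11 against 0.186 ± 0.0235 FPKM, and the DNA sensor adaptor Tmem173 (STING) had 126 ± 2.95 against 37.4 ± 1.34 FPKM. The endotoxin-binding protein genes Lbp (49.6 ± 6.35 against 145 ± 12.3 FPKM) and Cd14 (1.72 ± 0.279 against 7.03 ± 1.89) were higher in D-LEC. Complement genes were 16 higher in LN-LEC and 3 in D-LEC of 29. Cfb, factor B of the alternative pathway, had 468, 428, 498 and 375 FPKM in LN-LEC and 6.93, 6.56 and 10.2 FPKM in D-LEC (log2 fold change 5.8, SE 0.20, adjusted p = 1.4e-10 by edgeR). The regulator Cd55 had 691, 785, 747 and 664 FPKM in LN-LEC and 50.01, 51.6 and 60.8 FPKM in D-LEC (log2 fold change 3.74, SE 0.14, adjusted p = 1.1e-10 by edgeR). C3 had 209.7 ± 27.9 against 30.003 ± 11.3 FPKM. Clu, clusterin, reached 2201, 2010.5, 1910.2 and 1809 FPKM in LN-LEC and 15.1, 11.1 and 18.9 FPKM in D-LEC (log2 fold change 7.04, SE 0.21, adjusted p = 2.8e-11 by edgeR). The C1 inhibitor gene Serping1 was higher in D-LEC (33.4 ± 6.88 against 109.5 ± 8.03 FPKM). 

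Scavenger receptors and endocytic lectins had 28 of 44 tested members higher in LN-LEC and 5 in D-LEC, with a median log2 fold change of 2.45, or 2.07 when 2 genes without counts in a population were set to their bounds. Msr1, the class A scavenger receptor, had 144, 142, 131 and 115 FPKM in LN-LEC and 0.151, 0.0898 and 0.00670 FPKM in D-LEC (log2 fold change 10.78, SE 1.21, adjusted p = 2.0e-04 by edgeR). Clec4g had 96.2, 90.6, 117 and 72 FPKM in LN-LEC and 0.163, 0.264 and 0.0867 FPKM in D-LEC (log2 fold change 9.11, SE 0.82, adjusted p = 4.1e-05 by edgeR). The hyaluronan scavenger Stab2 had 167, 155, 193 and 187 FPKM in LN-LEC and 1.58, 1.18 and 1.18 FPKM in D-LEC (log2 fold change 7.06, SE 0.79, adjusted p = 1.8e-04 by edgeR). No D-LEC library reached the LN-LEC range of these genes. The Stab2 relative Stab1 went the other way (log2 fold change -1.37, SE 0.10, adjusted p = 7.2e-08 by edgeR). Clec1a (90.2 ± 8.84 against 10.6 ± 2.29 FPKM), Clec1b (33.7 ± 10.3 against 0.526 ± 0.366), the inhibitory Fc receptor Fcgr2b (10.8 ± 0.752 against 0.227 ± 0.152) and the fatty acid receptor Cd36 (249 ± 45.8 against 9.88 ± 1.4) were higher in LN-LEC. Of 18 tested myeloid genes 4 were higher in LN-LEC and 1 in D-LEC, with a median log2 fold change of 1.23, and 2 were higher in LN-LEC without D-LEC replicate 3. Those higher in LN-LEC were Ptprc, Lyz1, S100a8 (3.96 ± 3.47 against 0.139 ± 0.240 FPKM) and S100a9 (3.57 ± 3.24 against 0.138 ± 0.239). The macrophage marker Csf1r (0.300 ± 0.0317 against 0.486 ± 0.118 FPKM) was not called, and Cd68 (4.69 ± 1.02 against 14.5 ± 5.85) was higher in D-LEC. Their part in the scavenger receptor result was not tested.

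Adhesion molecules for leukocytes were higher in LN-LEC for 16 of 29 tested genes and higher in D-LEC for 4. Vcam1 had 108, 112, 98.4 and 122 FPKM in LN-LEC and 0.712, 0.499 and 1.08 FPKM in D-LEC (log2 fold change 7.15, SE 0.24, adjusted p = 5.5e-10 by edgeR). Jam3, a junctional adhesion molecule, had 276, 261, 303 and 247 FPKM in LN-LEC and 2.5, 3.31 and 2.95 FPKM in D-LEC (log2 fold change 6.54, SE 0.13, adjusted p = 2.1e-12 by edgeR). Alcam, a ligand of CD6, had 144, 138, 132 and 109 FPKM in LN-LEC and 3.61, 4.9 and 3.89 FPKM in D-LEC (log2 fold change 4.98, SE 0.36, adjusted p = 4.0e-06 by edgeR). Icam1 differed less (52.1 ± 3.88 against 26.3 ± 2.85 FPKM), and Icam2 was not called (91.5 ± 4.46 against 88.5 ± 5.92). The galectin Lgals3 had 30.7, 40.9 and 31.8 FPKM in D-LEC and 1.09, 0.561, 1.06 and 0.837 FPKM in LN-LEC (log2 fold change -5.28, SE 0.19, adjusted p = 7.3e-11 by edgeR), and the sialomucin Podxl was also higher in D-LEC (42.4 ± 9.54 against 187 ± 11.4). Of 24 tested genes, mostly of ligands, whose products stimulate or restrain T cells, 11 were higher in LN-LEC and 5 in D-LEC. Cd274, which encodes PD-L1 (106 ± 15.9 against 7.72 ± 1.84 FPKM), Sirpa (412 ± 57.4 against 121 ± 9.67), Nos2 (10.5 ± 0.942 against 0.310 ± 0.0795) and Raet1e, a ligand of NKG2D (7.67 ± 0.640 against 0.184 ± 0.0510), were higher in LN-LEC. Lgals9 was not called (103 ± 13.4 against 110.1 ± 7.42).

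**Figure D3:**
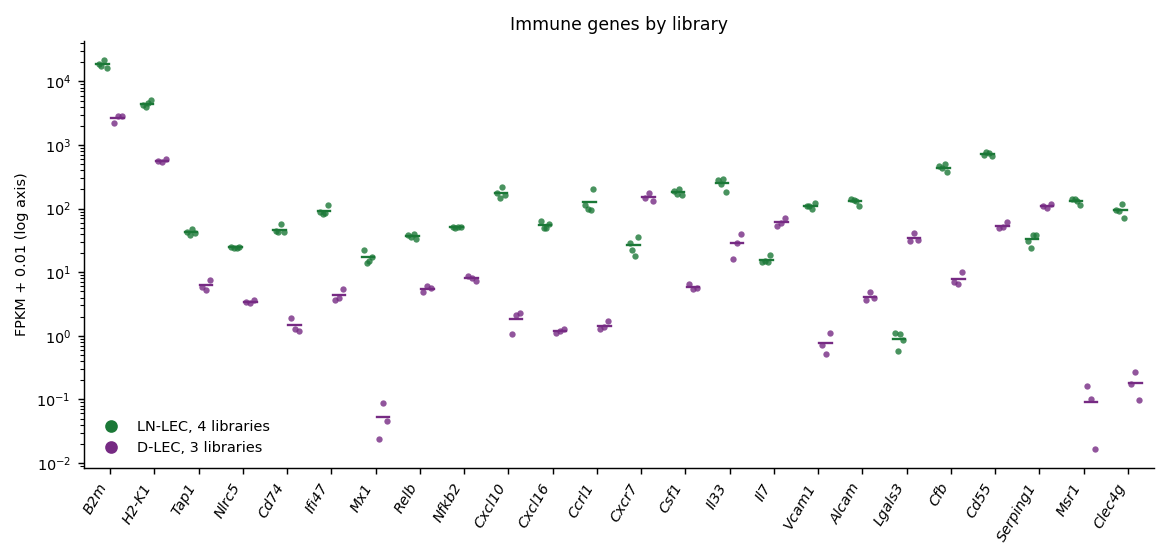
FPKM of immune genes in each LN-LEC (green, 4) and D-LEC (purple, 3) library on a log axis, with bars at the means and 0.01 added to each value. LN-LEC libraries lie above D-LEC libraries for most genes, and Cxcr7, Il7, Lgals3 and Serping1 are higher in D-LEC.

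Called genes of the extracellular matrix stood on both sides in each list. Summed levels were higher in D-LEC for collagens (169.2 to 219.5 FPKM in LN-LEC, 264.2 to 368.5 in D-LEC). The same held for basement membrane and elastic fibre genes (994.1 to 1050 and 2373 to 2432) and for matrix proteases and inhibitors (1104 to 1163 and 1758 to 2153). The sum of matricellular proteins and proteoglycans was higher in LN-LEC (1360 to 1442 and 849.8 to 1055). Collagens were 7 higher in LN-LEC and 10 in D-LEC of 32 tested, with a median log2 fold change of -0.20, and basement membrane and elastic fibre genes were 13 and 12 of 39. The elastic fibre binding protein Ltbp2 had 119.8, 107, 123 and 96 FPKM in LN-LEC and 0.629, 0.479 and 0.479 FPKM in D-LEC (log2 fold change 7.73, SE 0.16, adjusted p = 2.1e-12 by edgeR). Its relative Ltbp4 had 33.6, 29.6, 32.3 and 42 FPKM in LN-LEC and 294, 228 and 217 FPKM in D-LEC (log2 fold change -2.84, SE 0.14, adjusted p = 1.5e-09 by edgeR). The fibulins Fbln2 (5.58 ± 1.03 against 58.4 ± 2.86 FPKM) and Fbln5 (8.15 ± 2.02 against 56.8 ± 3.34) were higher in D-LEC, and elastin (Eln) was higher in LN-LEC (131 ± 16.6 against 61.8 ± 15.8). Laminin chains followed no single direction, since Lama5 (9.64 ± 0.819 against 0.976 ± 0.0668 FPKM) was higher in LN-LEC and Lama4 (62.6 ± 1.8 against 97.9 ± 9.12), Lamb1 (14.1 ± 1.89 against 24.3 ± 2.2) and Lamc1 (56.2 ± 4.31 against 79.1 ± 5.55) were higher in D-LEC. Of the collagens, Col12a1 (26 ± 1.22 against 0.107 ± 0.0404 FPKM) and Col27a1 (13.2 ± 1.22 against 0.165 ± 0.0828) were higher in LN-LEC, and the transmembrane collagen Col23a1 (2.1 ± 0.161 against 49.2 ± 2.03) and Col18a1, the source of endostatin (6.82 ± 1.45 against 42.8 ± 2.95), were higher in D-LEC. The type IV chains Col4a1 and Col4a2 were higher in D-LEC by less than 2-fold (log2 fold changes -0.87 and -0.72). 

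Matricellular proteins and proteoglycans had 14 members higher in LN-LEC and 14 in D-LEC of 41 tested. Tnc, tenascin-C, had 95.8, 83.5, 102 and 104 FPKM in LN-LEC and 2.92, 2.71 and 2.2 FPKM in D-LEC (log2 fold change 5.21, SE 0.40, adjusted p = 7.5e-06 by edgeR), whereas its relative Tnxb was higher in D-LEC (0.276 ± 0.0542 against 13.1 ± 1.64 FPKM). Postn, periostin (81.4 ± 6.64 against 12.9 ± 3.23 FPKM), Sparc (662 ± 23 against 57.7 ± 23.9) and the glypican Gpc1 (58.7 ± 8.22 against 0.672 ± 0.0654) were higher in LN-LEC. Nov, a CCN family protein, had 46.4, 50.6 and 53.5 FPKM in D-LEC and 1.76, 1.3, 1.46 and 2.09 FPKM in LN-LEC (log2 fold change -4.9, SE 0.14, adjusted p = 1.5e-11 by edgeR). The leucine-rich proteoglycan Prelp (43.7 ± 5.09 against 261 ± 27.4 FPKM), the syndecan Sdc1 (15.5 ± 3.4 against 94.2 ± 6.32), Spp1, osteopontin (0.239 ± 0.356 against 12.6 ± 6.96), and the CCN genes Ctgf (9.58 ± 0.821 against 33.2 ± 13.2) and Cyr61 (74.5 ± 21 against 195 ± 24.1) were higher in D-LEC. The fibroblast products Dcn (53.1 ± 11.6 against 43.8 ± 17.1) and Bgn (43.9 ± 9.67 against 38.7 ± 6.12) were not called.

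Proteases of the matrix were 12 higher in LN-LEC and 16 in D-LEC of 40 tested. Mmp9, gelatinase B, had 67.8, 60.7, 39.8 and 56.5 FPKM in LN-LEC and 0.116, 0.0936 and 0.0171 FPKM in D-LEC (log2 fold change 9.64, SE 0.97, adjusted p = 9.6e-05 by edgeR). Adam33 had 43.8 ± 3.88 against 1.96 ± 0.724 FPKM. The urokinase gene Plau (1.61 ± 0.209 against 25.9 ± 6.05 FPKM), its receptor Plaur (18.2 ± 2.85 against 77 ± 16.3) and the inhibitor Serpine2 (7.89 ± 1.01 against 92.7 ± 12.1) were higher in D-LEC together. So were Adamts1 (6.64 ± 2.3 against 37.4 ± 11.3) and the abundant inhibitors Timp2 (200.2 ± 21.1 against 402 ± 11.5) and Timp3 (547 ± 32.5 against 1162 ± 193), while Timp4 was higher in LN-LEC (65 ± 9.52 against 5.58 ± 2.35). Integrins that bind matrix were 6 higher in LN-LEC and 6 in D-LEC of 19. Itga2 (7.98 ± 1.45 against 0.142 ± 0.0475 FPKM) and Itga1 (18.5 ± 2.77 against 6.63 ± 1.54), which pair with the beta 1 chain to bind collagen, were higher in LN-LEC. Itga6, of the laminin receptors (5.92 ± 0.848 against 14.2 ± 1.08), Itgav (11.2 ± 1.95 against 17.4 ± 2.34) and Itgb1 (358 ± 14.8 against 565 ± 32.7) were higher in D-LEC.

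The cytoskeleton was higher in D-LEC for 24 of 43 tested genes and higher in LN-LEC for 13, with a median log2 fold change of -0.73. Vim, vimentin, had 309, 298, 318 and 359 FPKM in LN-LEC and 1028, 849 and 986 FPKM in D-LEC (log2 fold change -1.57, SE 0.10, adjusted p = 1.4e-08 by edgeR). Lmna, the A-type lamin of the nucleus, had 18.2, 18.4, 18.6 and 18.8 FPKM in LN-LEC and 139, 108 and 89.2 FPKM in D-LEC (log2 fold change -2.6, SE 0.12, adjusted p = 8.3e-10 by edgeR). Tpm4, a tropomyosin, had 129, 137, 139.9 and 172 FPKM in LN-LEC and 489, 498 and 482 FPKM in D-LEC (log2 fold change -1.76, SE 0.10, adjusted p = 7.3e-09 by edgeR). For all of these the D-LEC libraries lay above the LN-LEC libraries. Smooth muscle type genes in the list were higher in LN-LEC, among them Acta2 (3.93 ± 1.08 against 1.54 ± 0.511 FPKM), Tagln (4.44 ± 0.156 against 3.08 ± 0.0533) and Myl9 (4.41 ± 1.15 against 1.01 ± 0.147). Their levels in LN-BEC were 15.9, 14.4 and 21 FPKM, and the pericyte gene Rgs5 had 69.9 ± 15.5 against 1.19 ± 0.582 FPKM and 78.8 FPKM in LN-BEC. Stmn2, which acts on microtubules of neurons, had 108, 124 and 136 FPKM in D-LEC and 2.01, 1.57, 1.11 and 1.98 FPKM in LN-LEC (log2 fold change -6.19, SE 0.19, adjusted p = 1.3e-10 by edgeR). Gap43, a growth cone protein of neurons, which lies on chromosome 16 from 42248674 to 42340764 of mm9, had 145, 129 and 114 FPKM in D-LEC and 0.750, 0.607, 0.314 and 0.555 FPKM in LN-LEC (log2 fold change -7.87, SE 0.20, adjusted p = 1.1e-11 by edgeR). Sox10, of the Schwann cell list, had 0.532, 0.260, 0.288 and 1.87 FPKM in LN-LEC and 0.104, 0.0120 and 0.00987 FPKM in D-LEC. Its highest LN-LEC and LN-BEC values (1.87 and 4.34 FPKM) were in the libraries with the most gland transcripts. The part of gland transcripts in Sox10 was not tested.

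Junction genes were split, with 10 of 34 higher in LN-LEC and 11 in D-LEC. Cldn5 (174 ± 25.3 against 154 ± 28 FPKM), F11r (126 ± 9.21 against 133 ± 5.91) and Gja4 (51.7 ± 6.8 against 47.2 ± 9.26) were not called, and the catenins Jup (24.5 ± 2.33 against 72.5 ± 13.2), Ctnna1 (86.7 ± 8.23 against 174 ± 3.57) and Ctnnb1 (201 ± 11.7 against 385 ± 72.2) were higher in D-LEC. Of 46 tested ion channel genes 11 were higher in LN-LEC and 16 in D-LEC. Fam38b, which encodes the mechanosensitive channel PIEZO2, had 73.6, 80.3 and 64.9 FPKM in D-LEC and 2.69, 3.11, 2.26 and 2.44 FPKM in LN-LEC (log2 fold change -4.8, SE 0.14, adjusted p = 1.5e-11 by edgeR). Fam38a, of PIEZO1, had 1.09 ± 0.0698 against 1.38 ± 0.421 FPKM (edgeR adjusted p = 0.15, and 0.0083 without D-LEC replicate 1). Kcnn3, a calcium-activated potassium channel, had 10.3, 14.4 and 11.9 FPKM in D-LEC and 0.156, 0.147, 0.0781 and 0.100 FPKM in LN-LEC (log2 fold change -6.7, SE 0.24, adjusted p = 6.1e-10 by edgeR). The water channel Aqp1 (7.72 ± 1.54 against 72.3 ± 4.06 FPKM) and the sodium channel subunit Scn3b (1.84 ± 0.406 against 14.8 ± 1.81) were higher in D-LEC. The inward rectifier Kcnj2 (67.8 ± 20.9 against 2.86 ± 1.87 FPKM) was higher in LN-LEC, as was Kcna2 (2.03 ± 0.419 against 0.0218 ± 0.0195).

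Of 53 tested transcription factors of endothelial and regional identity 17 were higher in LN-LEC and 13 in D-LEC. Gata6 had 77.8, 74.4, 85 and 72.3 FPKM in LN-LEC and 3.14, 3.15 and 4.38 FPKM in D-LEC (log2 fold change 4.44, SE 0.36, adjusted p = 1.0e-05 by edgeR). Gata4 had 8.2 ± 0.264 against 0.234 ± 0.200 FPKM. Meox2 had 38.9, 41, 48.6 and 41.8 FPKM in LN-LEC and 6.68, 4.16 and 5.1 FPKM in D-LEC (log2 fold change 3.01, SE 0.24, adjusted p = 2.1e-06 by edgeR), whereas its relative Meox1 was higher in D-LEC (40.02 ± 9.88 against 84.1 ± 7.22 FPKM). Zeb2 (18.4 ± 3.14 against 0.307 ± 0.0727 FPKM), Irx3 (10.001 ± 2.13 against 0.423 ± 0.124) and Meis2 (50.2 ± 2.34 against 14.8 ± 1.6) were higher in LN-LEC. Klf2 (53 ± 17.8 against 198 ± 12.4) and Klf4 (76.2 ± 22 against 349 ± 46.2), which respond to shear flow and are also immediate early genes, Foxp1 (41.2 ± 2.23 against 117 ± 17.9) and Ebf1 (1.15 ± 0.261 against 7.33 ± 0.588) were higher in D-LEC. Hox genes keep the position of a tissue along the body axis, and 10 of 30 were higher in LN-LEC while 2 were higher in D-LEC. Hoxd9, the most abundant, had 193, 215, 196 and 200.2 FPKM in LN-LEC and 96.5, 164 and 116 FPKM in D-LEC (log2 fold change 0.68, SE 0.22, adjusted p = 0.029 by edgeR). Without LN-LEC replicate 2, 3 or 4 or D-LEC replicate 1 or 3 the edgeR adjusted p of Hoxd9 was 0.051 to 0.11. Hoxd10 had 22.6, 24.8, 23.1 and 27.2 FPKM in LN-LEC and 7.26, 8.56 and 8.5 FPKM in D-LEC (log2 fold change 1.59, SE 0.18, adjusted p = 9.8e-06 by edgeR), and its libraries did not overlap. Hoxd8 (38.2 ± 2.69 against 37.8 ± 0.551) and Hoxd4 (15.1 ± 1.4 against 14.9 ± 1.14) were not called, and Hoxa7 (1.62 ± 0.166 against 3.76 ± 0.628) and Hoxb2 (2.34 ± 0.920 against 4.91 ± 0.459) were higher in D-LEC.

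Insulin-like growth factors changed over between the tissues. Igf1 had 65.8, 65.6, 49.98 and 63.2 FPKM in LN-LEC and 6.59, 7.89 and 9.7 FPKM in D-LEC (log2 fold change 2.92, SE 0.19, adjusted p = 1.1e-07 by edgeR). Igf2 had 1.24, 1.31, 1.11 and 1.34 FPKM in LN-LEC and 69, 86.6 and 66.9 FPKM in D-LEC (log2 fold change -5.89, SE 0.14, adjusted p = 3.1e-12 by edgeR). The imprinted H19 RNA that neighbours it had 2.43, 1.64, 2.06 and 1.73 FPKM in LN-LEC and 242, 183 and 155 FPKM in D-LEC (log2 fold change -6.63, SE 0.31, adjusted p = 1.4e-07 by edgeR). No library of either population crossed into the range of the other. The binding proteins divided in the same way. Igfbp7 had 1558, 1393, 1653 and 1785 FPKM in LN-LEC and 75, 53.5 and 76 FPKM in D-LEC (log2 fold change 4.55, SE 0.16, adjusted p = 6.0e-11 by edgeR), and 3699 FPKM in LN-BEC. Igfbp5 had 15.3, 13.6, 12.7 and 18.8 FPKM in LN-LEC and 924, 929 and 886 FPKM in D-LEC (log2 fold change -5.92, SE 0.27, adjusted p = 2.6e-08 by edgeR), and Igfbp3 (3.79 ± 1.05 against 69.3 ± 9.07) and Igfbp6 (2.67 ± 0.942 against 35.4 ± 15.3) were also higher in D-LEC. Igfbp6 had 41.1, 18.1 and 47.1 FPKM in D-LEC, lowest in replicate 2, as were the mesothelial gene Msln and the fibroblast gene Dcn. The part of such cells in the Igfbp6 result was not tested. Among the other growth factors, Fgf10 (20.6 ± 2.28 against 0.0519 ± 0.00164 FPKM) and the EGF receptor ligand Tgfa (45 ± 7.09 against 2.03 ± 0.920) were higher in LN-LEC, and the receptor Igf1r was too (43.4 ± 5.16 against 10.8 ± 0.346). Over the IGF, FGF and EGF list 12 of 37 tested genes were higher in LN-LEC and 14 in D-LEC.

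In the BMP and TGF-beta pathway the ligand genes Bmp2, Bmp3, Bmp8a and Gdf10 were higher in LN-LEC, and Id1, Id2 and Id3, well-known targets of BMP signalling, were higher in D-LEC. Bmp2 had 122, 127, 90.3 and 139.8 FPKM in LN-LEC and 0.257, 0.130 and 0.0852 FPKM in D-LEC (log2 fold change 9.65, SE 0.31, adjusted p = 5.6e-10 by edgeR). Gdf10 had 204, 185, 201 and 290.3 FPKM in LN-LEC and 3.68, 2.6 and 4.37 FPKM in D-LEC (log2 fold change 5.95, SE 0.58, adjusted p = 6.2e-05 by edgeR). The target Id1 had 9.41, 5.2, 7.47 and 9.72 FPKM in LN-LEC and 188, 220.2 and 168 FPKM in D-LEC (log2 fold change -4.58, SE 0.21, adjusted p = 1.1e-08 by edgeR). Id3 had 21.2, 17.2, 22.4 and 21.6 FPKM in LN-LEC and 82.1, 74 and 67.6 FPKM in D-LEC (log2 fold change -1.85, SE 0.11, adjusted p = 1.4e-08 by edgeR). Id4 went the other way (1.02 ± 0.589 against 0.157 ± 0.0528 FPKM). Bmp4 was not called (15.6 ± 1.68 against 8.05 ± 3.99 FPKM, edgeR adjusted p = 0.053, and 0.0031 without D-LEC replicate 3). All 3 TGF-beta ligand genes were higher in D-LEC, Tgfb1 (5.27 ± 0.806 against 8.48 ± 1.1 FPKM), Tgfb2 (8.68 ± 1.74 against 28.3 ± 3.27) and Tgfb3 (11.6 ± 1.19 against 24.6 ± 3.85), though Tgfb3 had an edgeR adjusted p of 0.0504 without D-LEC replicate 1. The receptor Tgfbr2 was higher in D-LEC (91.1 ± 11.5 against 206 ± 7.71) and Tgfbr1 and Tgfbr3 were higher in LN-LEC (16 ± 2.29 against 4.26 ± 0.357 and 201 ± 12 against 74 ± 2.96). In all, 16 of 48 tested genes were higher in LN-LEC and 12 in D-LEC.

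Of 24 tested Notch pathway genes 10 were higher in D-LEC and 6 in LN-LEC. The target Hey1 had 97.7, 101 and 88.5 FPKM in D-LEC and 4.79, 3.67, 3.68 and 4.75 FPKM in LN-LEC (log2 fold change -4.5, SE 0.11, adjusted p = 6.9e-12 by edgeR). Hes1 (70.2 ± 13.4 against 214 ± 33.8 FPKM), Nrarp (7.48 ± 0.615 against 20.8 ± 5.33), the ligand Dll4 (21.9 ± 2.08 against 61.9 ± 5.81) and the receptor Notch1 (12 ± 0.248 against 26.9 ± 3.19) went the same way. Notch2 (149 ± 9.11 against 78.4 ± 3.53 FPKM), Jag1 (42.2 ± 7.25 against 21.6 ± 2.62) and Mfng (4.33 ± 0.635 against 0.372 ± 0.144) were higher in LN-LEC.

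VEGF and angiopoietin genes were 14 higher in LN-LEC and 11 in D-LEC of 31 tested. Pgf, a ligand of VEGFR1, had 30.2, 15 and 23.2 FPKM in D-LEC and 0.757, 0.741, 0.521 and 0.605 FPKM in LN-LEC (log2 fold change -5.13, SE 0.25, adjusted p = 4.3e-09 by edgeR). Figf, which encodes VEGF-D, had 7.18, 9.4 and 12.5 FPKM in D-LEC and 1.2, 1.42, 0.793 and 1.2 FPKM in LN-LEC (log2 fold change -3.07, SE 0.25, adjusted p = 3.7e-07 by edgeR). Vegfa had 15.7, 16.9, 15.2 and 13.8 FPKM in LN-LEC and 2.58, 1.71 and 1.75 FPKM in D-LEC (log2 fold change 2.95, SE 0.15, adjusted p = 1.9e-09 by edgeR). Ligands of the PDGF family, Pdgfa (36.8 ± 1.06 against 11 ± 0.940 FPKM), Pdgfb (16.5 ± 2.59 against 4.64 ± 0.799) and Pdgfc (10.5 ± 3.53 against 0.142 ± 0.163), and the vasoconstrictor Edn1 (28.5 ± 7.53 against 3.19 ± 1.09) were higher in LN-LEC. Angpt2 (20.2 ± 3.38 against 58.5 ± 5.15) was higher in D-LEC, and Angpt1 (4.2 ± 0.367 against 0.133 ± 0.0330) was higher in LN-LEC at a low level.

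Wnt pathway genes were 12 higher in LN-LEC and 18 in D-LEC of 52 tested. The receptors Fzd1 (20.4 ± 4.33 against 2.76 ± 0.448 FPKM), Fzd7 (17.7 ± 3.76 against 1.44 ± 0.323) and Fzd10 (13.7 ± 1.19 against 0.511 ± 0.132) were higher in LN-LEC, and Fzd4 (1.07 ± 0.296 against 3.12 ± 0.464) was higher in D-LEC. The R-spondin Rspo3 (2.65 ± 0.343 against 15.6 ± 2.95) and the ligand Wnt9a (1.46 ± 0.212 against 7.59 ± 1.71) were higher in D-LEC, and the ligand Wnt11 (4 ± 0.771 against 0.106 ± 0.0628) was higher in LN-LEC. Axon guidance genes, many of which also steer vessels, were 27 higher in LN-LEC and 19 in D-LEC of 70 tested. The counts were 16 and 17 when only genes of at least 1 FPKM in any population were tested, which leaves members below that level untested. Ntn1, netrin-1, had 123, 111 and 108 FPKM in D-LEC and 5.62, 5.26, 4.77 and 7.2 FPKM in LN-LEC (log2 fold change -4.32, SE 0.26, adjusted p = 4.3e-07 by edgeR). Its receptor Unc5c (4.81 ± 0.892 against 0.00769 ± 0.00725 FPKM), the receptor Robo1 (15.9 ± 3.28 against 0.110 ± 0.0246) and its ligand Slit2 (3.44 ± 1.23 against 0.0807 ± 0.0344) were higher in LN-LEC. The semaphorins Sema3f (8.35 ± 1.27 against 43.4 ± 4.14 FPKM), Sema4d (12.8 ± 0.615 against 49.4 ± 5.13) and Sema6a (47.8 ± 3.45 against 135 ± 12.1) were higher in D-LEC, and Sema7a (23.6 ± 1.56 against 2.71 ± 0.620) and Sema5a (16 ± 2.51 against 0.583 ± 0.238) were higher in LN-LEC.

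**Figure D4:**
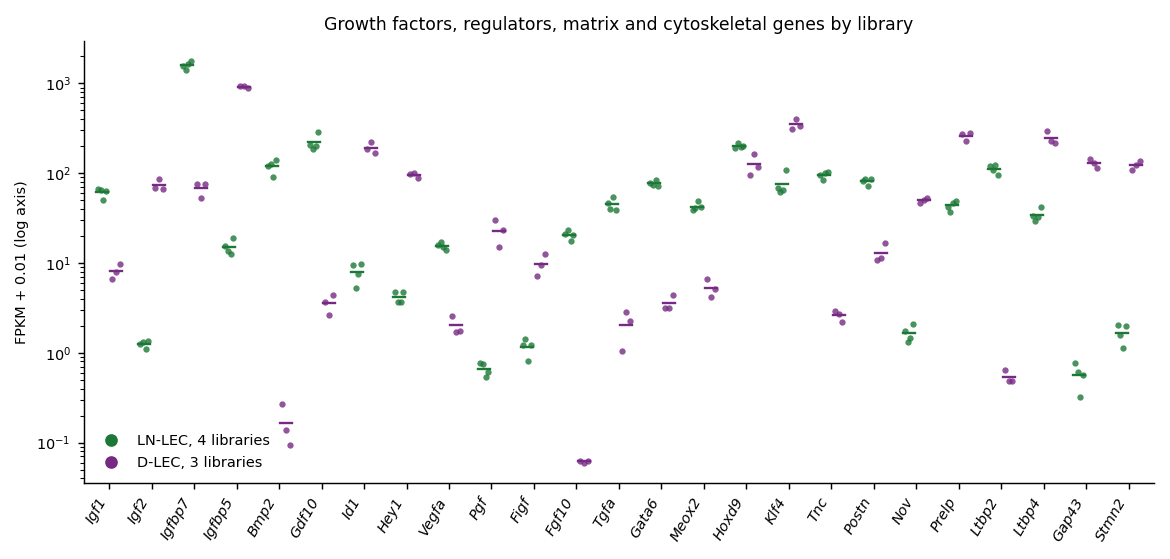
FPKM of growth factor, regulator, matrix and cytoskeletal genes in each LN-LEC (green, 4) and D-LEC (purple, 3) library on a log axis, with bars at the means and 0.01 added to each value. Paired family members lie apart in opposite directions, as Igf1 with Igf2, Igfbp7 with Igfbp5 and Ltbp2 with Ltbp4.

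Lipid and sterol genes were more often higher in LN-LEC. Of 36 tested genes of lipid uptake and handling 17 were higher in LN-LEC and 8 in D-LEC. Apoe had 473, 373, 542 and 329 FPKM in LN-LEC and 14.6, 19 and 21.4 FPKM in D-LEC (log2 fold change 4.54, SE 0.20, adjusted p = 2.7e-09 by edgeR). The desaturase Scd1 had 55 ± 9.76 against 5.21 ± 1.56 FPKM. Gpihbp1, which carries lipoprotein lipase across endothelium, had 514, 438 and 381 FPKM in D-LEC and 14.8, 20.2, 16.9 and 25 FPKM in LN-LEC (log2 fold change -4.52, SE 0.31, adjusted p = 2.1e-06 by edgeR). Fabp4 (1254 ± 214 against 179 ± 57 FPKM) and Cd36 were higher in LN-LEC, and their LN-BEC means were 8002 and 354 FPKM. Of 24 tested genes of cholesterol synthesis 14 were higher in LN-LEC and 2 in D-LEC, among them Hsd17b7 (23.8 ± 5.11 against 6.4 ± 1.49) and Sc5d (108 ± 10.1 against 44.4 ± 4.54) on the LN-LEC side. Prostanoid and sphingosine-1-phosphate genes were 11 higher in LN-LEC and 8 in D-LEC of 29. The prostaglandin E2 receptor Ptger4 had 214, 202, 182 and 151 FPKM in LN-LEC and 1.88, 1.51 and 1.92 FPKM in D-LEC (log2 fold change 6.72, SE 0.38, adjusted p = 5.6e-07 by edgeR), and the sphingosine-1-phosphate exporter Spns2 was not called (62.4 ± 5.14 against 67.5 ± 5.77).

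Core metabolism and proliferation had medians near that of all genes. Nuclear genes of the respiratory chain had a median log2 fold change of 0.13, with 15 of 55 higher in LN-LEC and 6 in D-LEC. Glycolysis genes were 7 and 6 of 23 (median -0.02), with the lactate transporter Slc16a1 higher in LN-LEC (109 ± 22.2 against 8.47 ± 3.03 FPKM) and Aldoa higher in D-LEC (165 ± 30.2 against 338 ± 51.2). Lysosome and autophagy genes were 17 and 9 of 43, with Ctsd (545 ± 98.4 against 247 ± 3.93 FPKM) higher in LN-LEC and Ctsb (106 ± 15 against 270.0 ± 39.3) and Tfeb (2.63 ± 0.214 against 9.21 ± 0.989) higher in D-LEC. Unfolded protein response genes were 8 and 4 of 26. Cell cycle genes were 7 and 5 of 38 (median 0.02), and Mcm3 (7.42 ± 0.428 against 7.06 ± 0.516) and Ube2c (5.41 ± 1.13 against 6.07 ± 1.73) were not called. Of the D-type cyclins, Ccnd1 was higher in LN-LEC (190.3 ± 5.63 against 69.9 ± 9.06 FPKM) and Ccnd2 in D-LEC (2.05 ± 0.292 against 34.2 ± 9.67 FPKM).

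By fold, the genes that differed most included several outside these lists. On the LN-LEC side C1ql2, a secreted C1q-like protein, had 11.6, 10.5, 15.6 and 10.4 FPKM and no count in a D-LEC library, so that it was at least 241-fold higher, against a floor of 3 counts per library. Chrnb4, a nicotinic receptor subunit (11.6 ± 1.55 against 0.0108 ± 0.0116 FPKM), Cyp1b1 (476 ± 28.2 against 0.414 ± 0.370), Serpina3f (69.1 ± 3.99 against 0.0762 ± 0.0356) and the Ras-association protein Rassf6 (26.7 ± 2.36 against 0.0262 ± 0.0320) were also among the 15 largest. On the D-LEC side they included Cd109, a TGF-beta co-receptor (0.0684 ± 0.0326 against 13.1 ± 0.458 FPKM), the serotonin receptor Htr2b (1.48 ± 0.502 against 119 ± 9.92), Fbln7 (0.178 ± 0.102 against 16 ± 1.12), Enpp3 (0.358 ± 0.201 against 28.8 ± 3.53), Tppp3 (4.12 ± 0.734 against 359 ± 119) and Sez6l (0.0420 ± 0.0209 against 6.45 ± 0.479). Cd2, best known as an adhesion molecule of T cells, had 60.5, 45.5 and 47 FPKM in D-LEC and 0.371, 0.399, 0.162 and 0.541 FPKM in LN-LEC (log2 fold change -7.02, SE 0.22, adjusted p = 2.6e-11 by edgeR). The T cell receptor gene Cd3e was at 0.421, 0 and 0.0186 FPKM in D-LEC, highest in replicate 1, without which it was called higher in LN-LEC (edgeR adjusted p = 0.0012). Cd247, the zeta chain of that receptor, had 6.42, 5.55, 8.09 and 5.81 FPKM in LN-LEC and 0.0263, 0.0284 and 0.0174 FPKM in D-LEC (log2 fold change 8.06, SE 0.23, adjusted p = 1.5e-11 by edgeR). Cd3e had 0.148, 0.202, 0.207 and 0.417 FPKM in LN-LEC. 

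By the size of the FPKM difference, the genes named on the D-LEC side included Actb (18482 ± 1446 against 26809.5 ± 4964 FPKM), Tmsb4x, which binds actin monomers (894 ± 89.6 against 6080.2 ± 453), S100a6 (81.7 ± 13.6 against 1316 ± 68.7), Fgl2 (21.1 ± 1.39 against 1050.4 ± 125), Gng11 (198 ± 18.7 against 1292 ± 104) and Apold1 (129.5 ± 63.5 against 1812 ± 181). Those on the LN-LEC side included B2m, H2-K1, H2-D1, Clu, Igfbp7 and Fth1, which encodes a ferritin chain (4288 ± 452 against 3061 ± 279 FPKM), beside the gland genes Bpifa2, Smr3a, Pip, Dcpp1 and Amy1 and the venule gene Glycam1. The same rule named 2 rows whose counting is uncertain. Rps3, a ribosomal protein gene, had 1472, 1412, 1705 and 1442 FPKM in LN-LEC and 264, 265 and 270.0 FPKM in D-LEC (log2 fold change 2.5, SE 0.10, adjusted p = 2.4e-10 by edgeR), while the other ribosomal protein genes ranged from -0.46 to 0.92 on the log2 scale (median of all 75, 0.18). Mir682 is a row shorter than a fragment with a high FPKM (5166 ± 574 against 3867 ± 590.4) and libraries that overlapped. 

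Immediate early genes, which answer within minutes to stress and to tissue dissociation, were set apart from the pathways and were higher in D-LEC. Of 46 tested 33 were higher in D-LEC and 4 in LN-LEC, with a median log2 fold change of -1.52. Their summed level was 2013, 1806, 1842 and 2944 FPKM in LN-LEC and 5906, 6378 and 5988 FPKM in D-LEC, and LN-LEC replicate 4 was the highest of its population. Egr1 had 101, 62.3, 68.5 and 213 FPKM in LN-LEC and 864, 1047 and 980.3 FPKM in D-LEC (log2 fold change -3.11, SE 0.44, adjusted p = 5.1e-04 by edgeR). Dusp1, a phosphatase of MAP kinases, had 30.5, 26.7, 27.5 and 94.1 FPKM in LN-LEC and 554, 561 and 502 FPKM in D-LEC (log2 fold change -3.59, SE 0.51, adjusted p = 6.7e-04 by edgeR). Fos had 77.5, 55.9, 56.5 and 223 FPKM in LN-LEC and 462, 571 and 559 FPKM in D-LEC (log2 fold change -2.36, SE 0.58, adjusted p = 0.012 by edgeR). All D-LEC libraries exceeded all LN-LEC libraries, replicate 4 included. Jun (187 ± 66.7 against 624 ± 41.7 FPKM) and Atf3 (2 ± 1.22 against 30.9 ± 3.28) were likewise higher in D-LEC. In all, 5 of the 35 immediate early genes with a promoter in the table (14.3%) held the full cAMP response element TGACGTCA, which reads the same on both strands, against 2.03% of all genes. The list holds known immediate early genes, so this share does not bear on the difference between the populations. The promoter of Dusp1 is shown as the member with the largest difference among those 5, with the element in capitals 143 bases before the start (chr17:26508473-26508722, minus strand, GRCm38.p6).
Dusp1: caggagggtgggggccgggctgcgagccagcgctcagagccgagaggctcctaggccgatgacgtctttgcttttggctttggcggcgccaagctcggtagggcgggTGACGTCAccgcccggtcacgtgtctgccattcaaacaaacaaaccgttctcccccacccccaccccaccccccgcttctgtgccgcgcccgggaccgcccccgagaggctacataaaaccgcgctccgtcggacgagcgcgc

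Klf2, Klf4, Nfkbiz and Gadd45g belong to this list as well as to other lists above. Heat shock genes were 10 higher in D-LEC and 2 in LN-LEC of 22, and 13 were higher in D-LEC without LN-LEC replicate 4. The small heat shock protein gene Hspb8 had 54.8, 40.4 and 41.5 FPKM in D-LEC and 1.38, 1.1, 0.759 and 2.38 FPKM in LN-LEC (log2 fold change -4.95, SE 0.30, adjusted p = 6.2e-07 by edgeR). Hspa1a had 0.815 ± 0.400 against 4.89 ± 0.690 FPKM.

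Skeletal muscle transcripts were set apart too. Of 34 tested sarcomere genes 23 were higher in D-LEC and 5 in LN-LEC, and of 34 genes of muscle metabolism and calcium handling 23 were higher in D-LEC and 2 in LN-LEC. Levels were low, and when only genes of at least 1 FPKM in any population were tested the D-LEC counts were 10 and 11. Members below that level were then not tested. Acta1, skeletal actin, had 10.6, 12.2 and 13 FPKM in D-LEC and 0, 0.0290, 0 and 0.101 FPKM in LN-LEC (log2 fold change -8.00, SE 0.43, adjusted p = 5.0e-09 by edgeR). Tnnt3, a troponin of fast fibres (0.0350 ± 0.0405 against 7.53 ± 1.21 FPKM), Mb, myoglobin (0.0254 ± 0.0508 against 5.61 ± 2.22), and Ckm, muscle creatine kinase (0.0432 ± 0.0507 against 0.664 ± 0.236), went the same way. Myh4, the main myosin of fast fibres, had 0.0402, 0.0488 and 0.0401 FPKM in D-LEC. Summed over the sarcomere list, levels were 103, 101, 104 and 90.01 FPKM in LN-LEC and 106, 128 and 137 FPKM in D-LEC, and the tropomyosin Tpm1, which was higher in LN-LEC (86.7 ± 5.57 against 59.2 ± 0.535), made up most of the LN-LEC sum. Summed over the metabolism list, levels were 17.3, 18.3, 19.9 and 20.8 FPKM in LN-LEC and 51.7, 62.1 and 71.6 FPKM in D-LEC. The giant sarcomere gene Ttn went the other way, at 1.16 ± 0.0919 against 0.262 ± 0.0700 FPKM. Pygm, muscle glycogen phosphorylase (0.399 ± 0.0979 against 10.5 ± 2.54 FPKM), was higher in D-LEC. The satellite cell regulators Pax7, Myf5 and Myod1 had no count in a LN-LEC library, and Myf5 had 1.28, 0.329 and 0.411 FPKM in D-LEC. Of 12 satellite cell genes 6 were higher in D-LEC, and 0 when only genes of at least 1 FPKM were tested. That filter left Pax7, Myf5 and Myod1 untested, with D-LEC means of 0.0224, 0.673 and 0.269 FPKM. The 2 higher in LN-LEC were Vcam1 and Msc (5.78 ± 0.525 against 0.122 ± 0.125 FPKM). The list summed to 104 to 128 FPKM in LN-LEC, most of it Vcam1, and to 1.4 to 4.49 FPKM in D-LEC.

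Mesothelial genes were higher in D-LEC for 12 of 14 tested and higher in LN-LEC for 0. Msln, mesothelin, had 5.61, 1.59 and 5.42 FPKM in D-LEC and 0.161, 0.0393, 0.0352 and 0.0683 FPKM in LN-LEC (log2 fold change -5.8, SE 0.63, adjusted p = 1.5e-05 by edgeR). Upk3b had 10.02, 4.76 and 14.6 FPKM in D-LEC and 0.479, 0.0612, 0.201 and 0.264 FPKM in LN-LEC (log2 fold change -5.28, SE 0.69, adjusted p = 2.5e-04 by edgeR). D-LEC replicate 2 was the lowest of its population for both, and for Wt1 (2.2, 0.654 and 2.1 FPKM in D-LEC). The summed level of the list was 158, 145, 154 and 135 FPKM in LN-LEC and 324, 367 and 376 FPKM in D-LEC, most of it Gpm6a, which both populations carried (143 ± 12.4 against 314 ± 36.5 FPKM). Krt19 (0.482 ± 0.351 against 4.74 ± 2.18 FPKM) and Rspo1 (0.290 ± 0.226 against 2.29 ± 1.14), which are also in the cytoskeleton and Wnt lists, are mesothelial genes that were lowest in the same library. The part of mesothelial and muscle transcripts in the D-LEC results was not tested.

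Markers of other cell types were measured in the same libraries, beside the gland genes given above. Of 18 tested T and NK cell genes 7 were higher in LN-LEC and 3 in D-LEC, of 13 B cell genes 7 and 1, and of 18 myeloid genes 4 and 1. Summed levels were 18.5, 18.7, 21 and 18.9 FPKM (T and NK cells, LN-LEC), 72.5, 56.6 and 57.3 FPKM (T and NK cells, D-LEC, most of it Cd2), 98.3 to 121 FPKM (B cells, LN-LEC), 150.1 to 163 FPKM (B cells, D-LEC, most of it Sdc1 and Xbp1), 19.4, 14.5, 16.4 and 31.5 FPKM (myeloid, LN-LEC) and 16, 31.3 and 15.9 FPKM (myeloid, D-LEC). Cd3e had 0.148, 0.202, 0.207 and 0.417 FPKM in LN-LEC and 0.421, 0 and 0.0186 FPKM in D-LEC, and Ptprc did not exceed 0.293 FPKM. The fibroblast list had 5 members higher in LN-LEC and 2 in D-LEC of 17, with Dcn at 53.1 ± 11.6 against 43.8 ± 17.1, Pdgfra at 0.904 ± 0.448 against 0.470 ± 0.355 and Lum at 4.99 ± 2.2 against 4.46 ± 2.59 FPKM. Its summed level was 201 to 320.1 FPKM in LN-LEC and 750.5 to 1043 FPKM in D-LEC. Its D-LEC members were Thy1 and Il7, which lymphatic endothelium also expresses. The pericyte list had 9 higher in LN-LEC and 1 in D-LEC of 14, with sums of 80.5 to 125 FPKM in LN-LEC and 36.9 to 55.4 FPKM in D-LEC. Rgs5 made up most of the LN-LEC sum. Adipocyte, Schwann cell and erythroid and platelet lists had 3, 3 and 3 members higher in LN-LEC and 1, 1 and 2 in D-LEC, and Adipoq was at 0.228 ± 0.228 against 0.0109 ± 0.0189 FPKM. The adipocyte sum, nearly all Fabp4, was 1089.9 to 1572 FPKM in LN-LEC and 125 to 240.5 FPKM in D-LEC. The Schwann cell sum, mostly Pmp22, was 63.7 to 77.2 FPKM in LN-LEC and 178 to 196 FPKM in D-LEC. The erythroid and platelet sum, mostly Itga2b and Pf4 in LN-LEC, was 122 to 154 FPKM there and 5.05 to 11.1 FPKM in D-LEC.

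**Figure D5:**
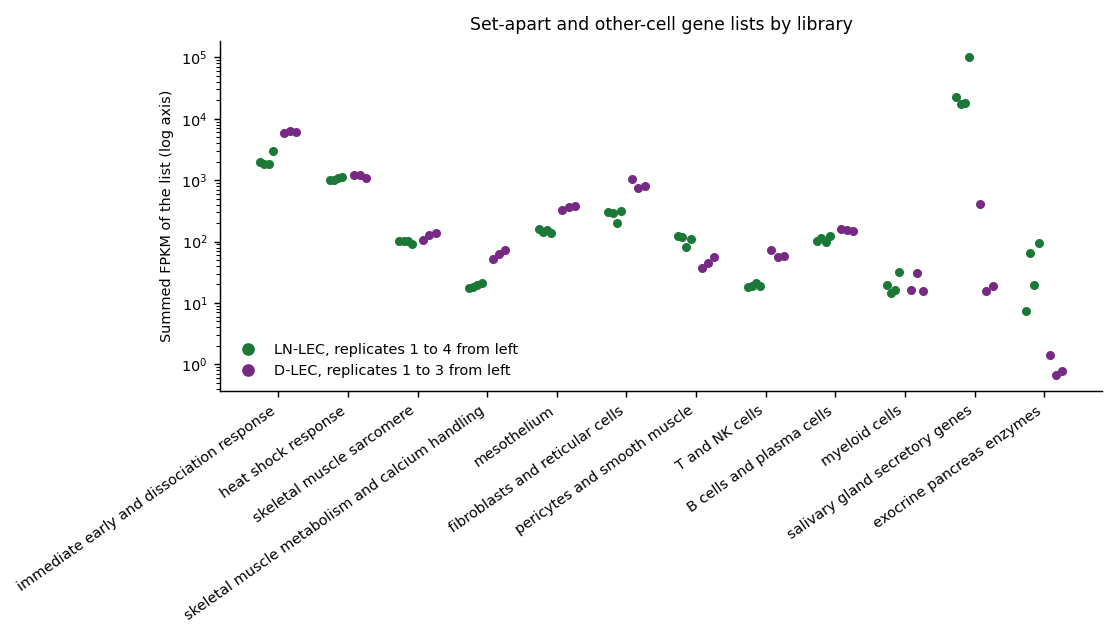
Summed FPKM of each list per library on a log axis, LN-LEC in green and D-LEC in purple, with replicates in order from the left. Immediate early genes lie higher in the 3 D-LEC libraries with LN-LEC replicate 4 between the groups, and salivary gland genes lie highest in LN-LEC replicate 4 (8.96% of its fragments).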

How the data were processed

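RNA of sorted cells was made into cDNA with an Ovation amplification kit and sequenced from both ends on an Illumina HiSeq. The authors trimmed the reads, used STAR for alignment to mm9, and counted read pairs per gene symbol over exons with featureCounts (1.4.4), with both ends mapped and strand ignored. The deposited table holds raw counts per gene and library and the exon length of each gene. Since strand was ignored, overlapping and antisense genes cannot be told apart, and levels of genes with near-identical copies are uncertain. The replicate numbers follow accession order and name a library only. The labels do not say that the pools of mice were independent, so p-values measure the spread between these libraries, which may be technical.

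Of 23284 rows, 3794 rows of unnamed transcripts were left out (3.02 to 3.34% of fragments in the LEC libraries). Tested genes had, in any population, at least 1 normalized count on average. They were fitted in edgeR (4.0.16, R 4.3.3) with TMM scaling, quasi-likelihood fits of all 10 libraries and Benjamini-Hochberg adjustment over all 15338 genes, at a threshold of 0.05. FPKM were computed from the counts, TMM-scaled totals and exon lengths. A gene without counts in a population was compared with a floor of 3 counts per library, and such floors cover counting error only. The test was tried on simulated counts of known fold, with the same dispersion for every gene, few changed genes and no outlying library. These settings differ from the data, so the trial checks the code and not the error rate here. Alternatives were DESeq2 (1.42.0), its size factors in edgeR, no filter, a filter of 1 FPKM, the 7 LEC libraries alone, scaling without muscle, immediate early and heat shock genes, and leaving out each library. Leaving out LN-LEC replicate 4 with LN-BEC replicate 3, and leaving out gland genes, were added after seeing the data. The 58 gene lists and the comparison were chosen with earlier results of these data known. Genes named are list members, the 15 genes in each direction with the largest fold among abundant genes (at least 500 mean normalized counts in the higher population) with non-overlapping libraries, and the 15 in each direction with the largest FPKM difference. Some list members are not reported here. The 2 gland lists were chosen after their values were seen. Promoters were RefSeq sequences of GRCm38.p6 (27025 genes with a promoter), matched by symbol, while gene coordinates are those of the table (mm9).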

Additional observations from a re-analysis of the deposited data

Results flagged for a closer look

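Among the 368 genes named, 41 (11.1%) had an LN-LEC library far from the other 3 by Dixon's ratio for 4 samples, and in 29 of the 41 it was replicate 4. For independent, normally distributed values chance alone would give this for about 1 in 20 groups of 4. FPKM of genes that vary together need not meet this, so the rate is not a benchmark for the 41. A gene with counts in a single LN-LEC library, such as Mb or Myh4, always passes the ratio. The 3 D-LEC libraries are too few for the same check. Gland transcripts were most abundant in replicate 4, and their part in the other values was not tested.

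Gland genes were far higher in LN-LEC replicate 4. Bpifa2 stood at 61581 FPKM there, Smr3a at 12902, Pip at 5401 and Amy1 at 3160 FPKM. The immediate early genes Fos (223 FPKM), Dusp1 (94.1), Klf4 (109), Atf3 (3.81) and Apold1 (224) were higher there than in the other LN-LEC libraries, and still under every D-LEC library. Several genes that were higher in D-LEC also had their highest LN-LEC value in this library, namely Thy1 (145 FPKM), Mmrn1 (284), Meox1 (54.7), Hes1 (90.1), Anxa2 (165), Col18a1 (8.98), Ctgf (10.8), Il7 (18.9), Pmp22 (70.1) and Aldoa (210). Cd36 (317 FPKM), Xbp1 (65.7) and Sox10 of the Schwann cell list (1.87) were also higher there. Foxp1 (37.8 FPKM), Fzd1 (14), Hoxd4 (13), Ifngr2 (227), Prox1 (60.2), Sema6a (42.6) and Tgfb1 (4.08) were lower there than in the other LN-LEC libraries.

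LN-LEC replicate 3 stood apart in the interferon-induced chemokine Cxcl9 (69.3 FPKM against at most 26.1 in the others), in Cd74 (58.2 FPKM) and in Icam1 (57.8 FPKM). It was lowest in Igf1 (50 FPKM), Plau (1.3 FPKM), Ebf1 (0.762 FPKM) and Wt1 (0.012 FPKM). LN-LEC replicate 1 held the traces of muscle transcripts Mb (0.102 FPKM) and Myh4 (0.0212 FPKM), which had no count in the other 3, and the highest Spp1 (0.768 FPKM) and Msc (6.56 FPKM). Nfkb2 was lowest in replicate 2 (49 FPKM), with a range within LN-LEC of 49 to 51.6 FPKM.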

How the results depend on the processing

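Of 368 genes named, 353 had a value under all 15 alternatives, 2 of which were added after seeing the data, and 337 of the 353 kept their call and direction. The other 15 genes were left out of at least 1 alternative, and 12 of them kept call and direction in the rest. In all 19 genes crossed the threshold under at least 1 alternative, and none reversed. Across single libraries left out, 6224 to 6752 genes were called in all, 3284 to 3509 with LN-LEC above and 2940 to 3243 with D-LEC above. At least 5-fold differences numbered 1706 to 1801, of which 1134 to 1231 were on the LN-LEC side and 558 to 631 on the D-LEC side. With only genes of at least 1 FPKM tested, at least 5-fold differences fell to 1135, 781 of them on the LN-LEC side and 354 on the D-LEC side, since fewer genes were tested. DESeq2 called 7295 genes, the fit of the 7 LEC libraries 7095, and the fit without LN-LEC replicate 4 and LN-BEC replicate 3 called 7091. List counts of at least 3 that moved by over 1.5 times, beside those given in the report, were as follows. The filter of 1 FPKM lowered the counts higher in LN-LEC from 10 to 6 for Hox genes, from 7 to 4 for chemokine receptors and scavengers, from 5 to 3 for sarcomere genes and from 5 to 3 for fibroblast genes. It lowered scavenger receptors higher in D-LEC from 5 to 3, as did leaving out D-LEC replicate 3. DESeq2 raised leukocyte adhesion genes higher in D-LEC from 4 to 8. Respiratory chain genes higher in D-LEC fell from 6 to 2 without D-LEC replicate 1 and to 3 without LN-LEC replicate 1 or D-LEC replicate 3. Cell cycle genes higher in D-LEC fell from 5 to 3 without LN-LEC replicate 1, 2 or 3 or D-LEC replicate 1. Counts of 1 or 2 members changed by at most 2. No paired analysis was possible because replicate numbers followed accession order and the labels name no shared animal, day or batch. Each library pools mice, so variation between animals was not measured, and the tissue, its dissociation and the purity of the sort cannot be told apart in this design.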

Other observations

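Of the genes called higher in LN-LEC, 204 had no count in any D-LEC library, and of those called higher in D-LEC, 70 had no count in any LN-LEC library. Some genes that set LN-LEC apart from D-LEC were also abundant in the blood endothelium of the same nodes. These were chosen after their values were seen. Cxcl9 stood in LN-LEC at 70.8% of its LN-BEC mean and in D-LEC at 0.465%. Csf2rb, a shared subunit of cytokine receptors, stood at 56.3% in LN-LEC and 0.0824% in D-LEC. Sparc, a matricellular protein, stood at 49.8% in LN-LEC and 4.34% in D-LEC. Igfbp7 stood at 43.2% and 1.84%, and Madcam1 at 42.8% and 0.0367%.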
